A study of Mus musculus with 9 samples.

Results

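The genes described here are those of glycolysis and of the transcriptional response to low oxygen. The starting list of 37 genes held glucose transporters, the enzymes of glycolysis, the genes that decide the fate of pyruvate and lactate, the oxygen sensors, and well-known genes induced by hypoxia. A gene was kept where its mean over the 9 libraries was at least 1 FPKM (fragment counts divided by transcript length and by the number of fragments mapped), which held for 34 of the 37, out of 24318 genes in the deposited tables. The 3 that did not pass were the glucose transporter Slc2a3, at most 0.145 FPKM in any library, the lactate exporter Slc16a3, at most 0.131 FPKM, and the carbonic anhydrase Car9, between 0.138 and 0.484 FPKM.

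Glycolysis splits glucose into pyruvate. Early in it, glucose is phosphorylated by hexokinases and fructose 6-phosphate by phosphofructokinases. The pyruvate made at its end is either reduced to lactate or taken into mitochondria. Many of these genes are also targets of the hypoxia-inducible factors (HIF), whose alpha subunits are hydroxylated by the Egln prolyl hydroxylases when oxygen is present and then destroyed through VHL. When oxygen falls, HIF persists and binds short DNA elements with the core ACGTG or GCGTG near its targets. In microglia and macrophages, glycolysis and HIF are known to take part in inflammatory activation.

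The study measured polyA-selected RNA of a mouse cell line in 3 groups of 3 libraries, titled Vehicle, CON-BDEV and SE-BDEV, where BDEV are brain-derived extracellular vesicles added to the cells. The series title names status epilepticus, and the library names of the 3 groups begin with CON, EV Saline and EV Pilo. Genotype, vesicle dose, exposure time, the animals behind the vesicles and the medium were not stated in the labels used here, and no oxygen level is named for any group. The labels do not say whether replicates were separate cultures, so the spread behind each p-value may be technical only.

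The labels name the cells N2a, a neuroblastoma line, whereas the design text names BV2, a microglial line. All 12 microglia and macrophage markers had a mean of at least 1 FPKM, with a sum of 2753 to 3169 FPKM per library. Of 12 neuronal and neuroblastoma markers only Elavl4 reached that mean, the sum was 3.22 to 5.24 FPKM, and Th, Dbh, Mycn and Stmn2 were listed at 0 in every library. Astrocyte (0 of 7), oligodendrocyte (1 of 6) and endothelial or blood markers (1 of 6) were likewise nearly all under 1 FPKM. The exceptions were Mbp, which did not pass in either comparison with Vehicle, and Flt1, a receptor for Vegfa. Flt1 rose from 37.6 to 45.2 FPKM with SE-BDEV (0.26, adjusted p = 0.0207), as did Elavl4 from 3.41 to 4.22 FPKM (0.24, adjusted p = 0.0433), and their part in the results was not tested. Depth, estimated from the smallest step of FPKM values, was such that 27.6 to 31.9 fragments stood behind 1 FPKM in each kilobase of transcript, a total of 27589000 to 31920000 fragments per library. Among the 6 vesicle libraries, CON-BDEV 1 and SE-BDEV 3 held the 2 highest values in 11 of the 34 genes. They held the 2 lowest in 3. For several results that rest on either library, the value without it is given.

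In Vehicle the enzymes of the middle and lower steps of glycolysis were the highest of the 34 genes, with Gapdh 25th, Aldoa 56th, Eno1 59th and Pkm 64th of all 24318 genes by mean level. On the FPKM scale, which is per transcript length, Gapdh had a mean level of 2234 ± 59.2 (SD, n = 3), Aldoa of 1678 ± 15.0, Eno1 of 1589 ± 17.9 and Pkm of 1475 ± 32.1. The enzymes of the early phosphorylation steps were far lower, with the 3 hexokinases at 34.8 to 110.7 FPKM and the 3 phosphofructokinases at 54.2 to 56.5 FPKM. Glucose entry was represented by Slc2a1 at 29.5 ± 0.167 and Slc2a6 at 25.2 ± 1.04 FPKM. Of the hypoxia-induced genes outside glycolysis, Ndrg1 was highest at 55.9 ± 0.714, and P4ha2 lowest at 3.60 ± 0.197 FPKM. Together the 34 genes took 1.76% to 1.90% of the summed FPKM of a library. Gapdh, Ldha, Pgk1, Aldoa, Pgam1, Tpi1 and Eno1 have near-identical pseudogene copies, and Eno1 is listed together with Eno1b, so how reads were divided among copies is uncertain for these genes.

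**Figure D1:**
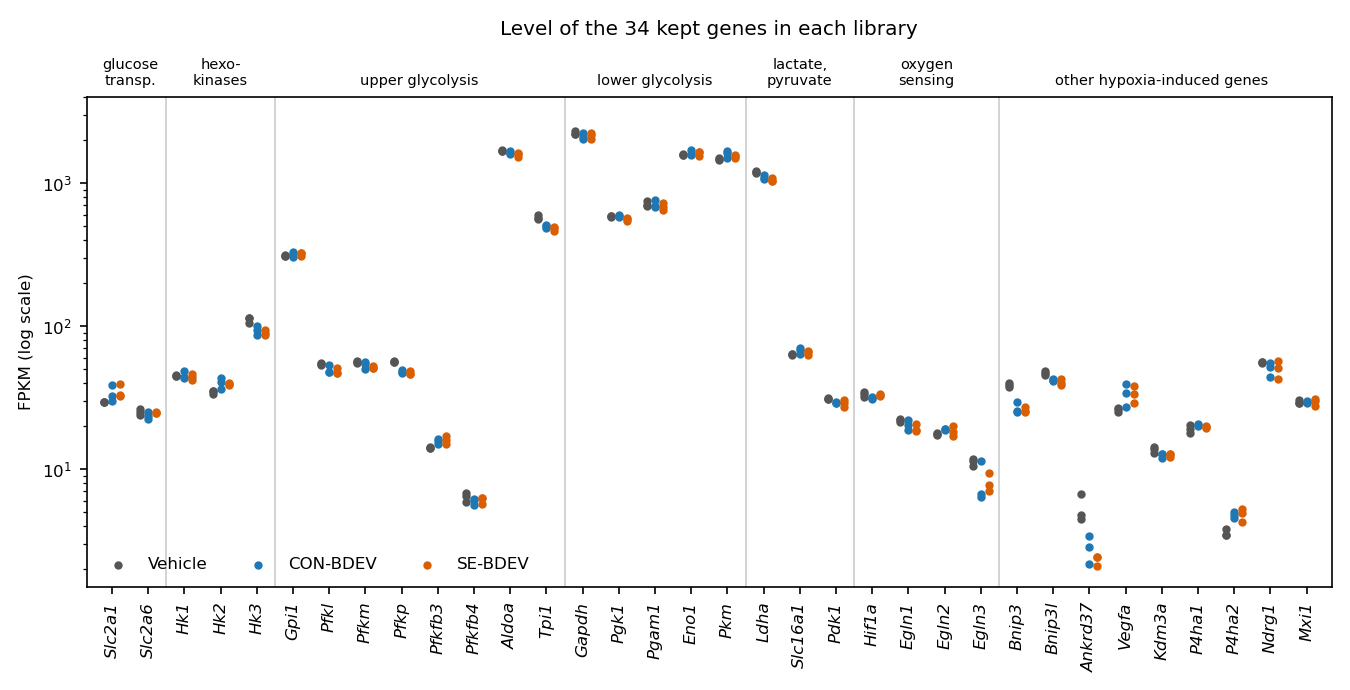
FPKM (log axis) of the 34 kept genes in each of the 9 libraries, 1 point per library, coloured by group and ordered by role. Levels run from 2.11 FPKM (Ankrd37 in SE-BDEV 1) to 2302 FPKM (Gapdh in Vehicle 1), and shifts between groups are small beside the range between genes.

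The HIF core was looked for in promoter sequence, since it is the element that the hypoxia-induced genes share. RefSeq promoter sequences (GRCm38.p6) were matched by symbol for 32 of the 34 genes, all but Bnip3l and Ndrg1, and the 250 bases before each start were searched for ACGTG and GCGTG on both strands. CACGTG holds ACGTG on both strands and was counted on each. A match was present in at least 1 window of 30 of the 32 genes (93.8%), compared with 63.5% of the 8137 genes that averaged at least 1 FPKM and 41.5% of all 27025 genes in the promoter table. ACGTG alone was present in 21 of 32 (65.6%), compared with 26.1% and 18.5%. Genes with several starts have several windows. Per window, 39 of the 50 windows of the 32 genes (78%) held either motif, compared with 57.4% of the 10398 windows of genes that averaged at least 1 FPKM and 38.6% of all 32851. ACGTG was in 25 of the 50 (50%), compared with 22.4% and 16.6%. These are matches of letters in a window and not measured binding sites. The windows below belong to 3 genes that were lower with SE-BDEV (Bnip3, Ankrd37 and Egln3) and 2 that were higher (P4ha2 and Hk2), and are shown so that the motifs of both kinds can be compared. Capitals mark the motifs, read on either strand (the reverse complement of ACGTG reads CACGT).
Bnip3, chr7:138909507-138909756, minus strand: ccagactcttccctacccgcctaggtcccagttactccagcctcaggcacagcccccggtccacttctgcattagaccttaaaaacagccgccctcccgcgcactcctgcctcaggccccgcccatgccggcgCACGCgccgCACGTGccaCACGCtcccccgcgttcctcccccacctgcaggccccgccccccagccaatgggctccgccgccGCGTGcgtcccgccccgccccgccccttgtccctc
Ankrd37, chr8:45999851-46000100, minus strand: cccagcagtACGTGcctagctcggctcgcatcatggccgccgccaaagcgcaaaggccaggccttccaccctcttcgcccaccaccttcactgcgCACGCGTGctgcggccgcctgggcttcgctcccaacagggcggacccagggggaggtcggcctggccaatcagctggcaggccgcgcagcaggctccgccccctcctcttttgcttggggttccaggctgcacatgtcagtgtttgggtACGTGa
Egln3, chr12:54203875-54204124, minus strand: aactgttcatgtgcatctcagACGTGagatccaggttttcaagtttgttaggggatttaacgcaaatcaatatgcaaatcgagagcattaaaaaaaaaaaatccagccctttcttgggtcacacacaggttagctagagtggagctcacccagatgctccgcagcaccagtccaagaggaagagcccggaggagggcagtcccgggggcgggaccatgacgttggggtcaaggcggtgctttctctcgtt
P4ha2, chr11:54100674-54100923, plus strand: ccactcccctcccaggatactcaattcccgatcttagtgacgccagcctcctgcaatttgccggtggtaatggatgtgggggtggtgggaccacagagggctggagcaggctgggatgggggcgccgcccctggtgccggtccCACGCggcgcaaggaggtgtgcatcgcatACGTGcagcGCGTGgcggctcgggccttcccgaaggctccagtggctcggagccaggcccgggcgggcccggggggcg
Hk2, chr6:82774455-82774704, minus strand: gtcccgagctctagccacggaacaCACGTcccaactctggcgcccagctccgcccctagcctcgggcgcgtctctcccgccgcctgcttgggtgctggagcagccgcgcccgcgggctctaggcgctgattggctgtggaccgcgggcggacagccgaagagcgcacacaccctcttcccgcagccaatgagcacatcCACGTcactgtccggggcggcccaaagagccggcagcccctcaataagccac
Bnip3 had 5 matches, Ankrd37 4, P4ha2 3, Hk2 2 and Egln3 1. With a match in 30 of the 32 genes, nearly any choice of genes would carry one, so its presence cannot tell the 2 directions apart. Tpi1, which fell in both comparisons with Vehicle, and Gpi1 were the 2 genes with none in any window.

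The first question was whether adding vesicles of either kind was accompanied by a change in these genes. Tests used limma on log2(FPKM + 1), so each difference below is a log2 fold change on that scale, which understates the change of low genes, given ± SE and with a p adjusted by Benjamini and Hochberg over all genes tested. With CON-BDEV, 6 of the 34 genes (17.6%) passed an adjusted p of 0.05, of 5.67% of all 10535 genes tested. P4ha2 rose, and Hk3, Pfkp, Tpi1, Bnip3 and Ankrd37 fell. With SE-BDEV, 13 of 34 (38.2%) passed, of 11.9% of all genes. Slc2a1, Hk2, Vegfa and P4ha2 rose, and Hk3, Pfkl, Pfkp, Tpi1, Ldha, Egln3, Bnip3, Bnip3l and Ankrd37 fell. Over genes averaging at least 10 FPKM the share called was 6.91% with CON-BDEV and 13.8% with SE-BDEV. The 34 genes and the further lists were chosen with earlier results of these data known. The shares here and below are therefore not an independent test of them. The same 3 Vehicle libraries stand in both comparisons, so the 6 genes called in both are not independent of each other.

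Groups that did not overlap were more common than calls. The 3 CON-BDEV and 3 Vehicle values did not overlap in 17 of the 34 genes (6 higher, 11 lower), compared with 29.3% of all genes, and the SE-BDEV values in 20 (5 higher, 15 lower), compared with 32.8%. The median difference of the 34 genes was -0.076 with CON-BDEV and -0.061 with SE-BDEV, beside medians of 0.0054 and -0.00080 over all genes tested. In whole cultures, fewer cells of a kind and less RNA per cell cannot be told apart. The CON-BDEV count changed with the library left out. Without any 1 Vehicle library or without CON-BDEV 3, only Bnip3 of the 34 genes was called. Without CON-BDEV 1 there were 9 calls (2 higher, 7 lower), and without CON-BDEV 2 there were 7 (2 higher, 5 lower). Calls over all genes moved in the same fits. They were 66 to 97 higher and 18 to 36 lower where only Bnip3 was left. Without CON-BDEV 1 they were 687 higher and 380 lower, beside 401 and 196 with all libraries. The SE-BDEV count was 6 without Vehicle 1 or Vehicle 2, all of them lower, 8 without Vehicle 3 (2 higher), 9 without SE-BDEV 1 (2 higher), and 15 (5 higher, 10 lower) without SE-BDEV 3. Over all genes, the SE-BDEV fits that left out 1 library gave 501 to 1311 calls, beside 1253 with all libraries. Beside each gene, a call is also said to be lost where another setting ended it: no filter on low values, another scaling, limma without a variance trend, the title number or the library-name number as a block, or 1 fit of all 9 libraries.

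**Figure D2:**
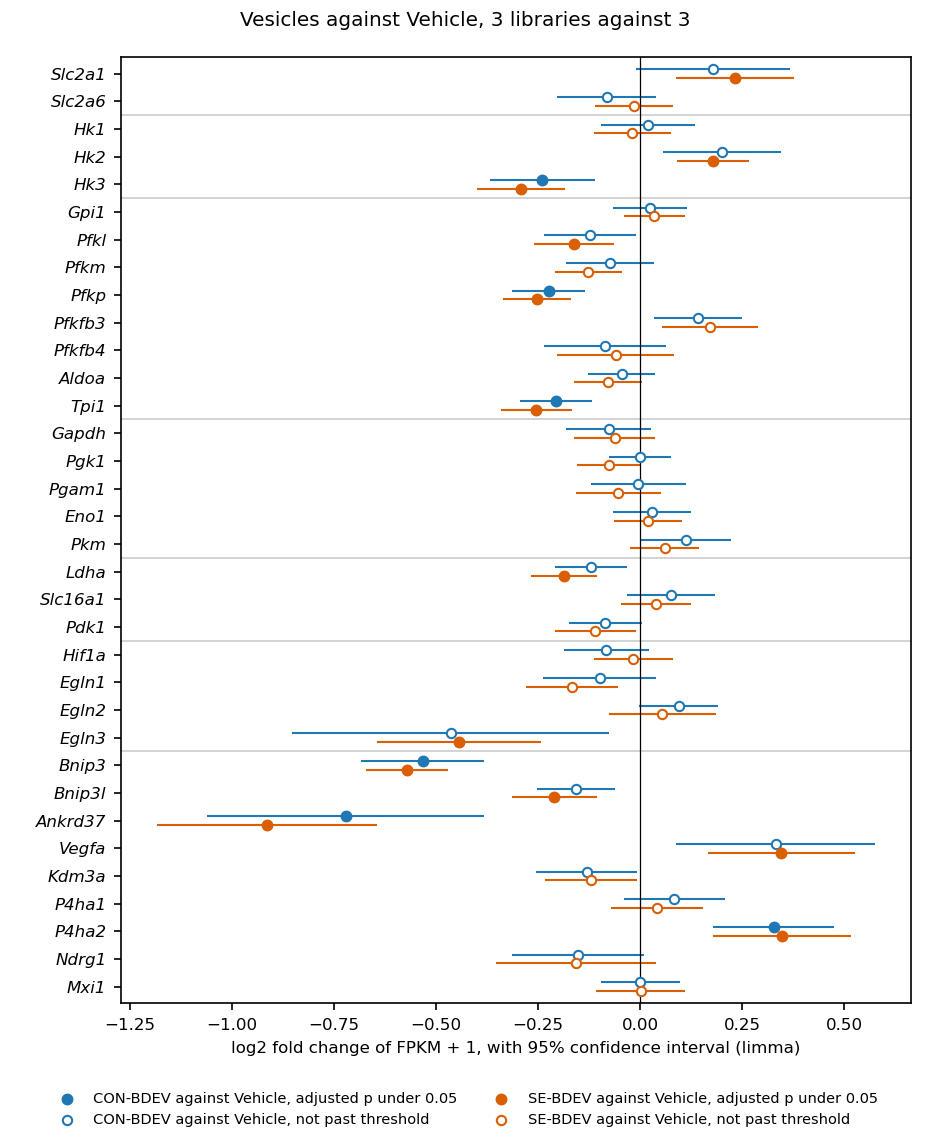
Log2 fold change of FPKM + 1 (horizontal axis) of each gene with its 95% confidence interval, for CON-BDEV and SE-BDEV against Vehicle, 3 libraries against 3. Filled points passed an adjusted p of 0.05. Ankrd37 and Bnip3 lie farthest to the left in both comparisons. The 5 genes of lower glycolysis from Gapdh to Pkm lie between -0.077 and 0.11.

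Glucose transporters were represented by Slc2a1 (GLUT1), the main route of basal glucose entry, and Slc2a6 (GLUT6), a transporter of myeloid cells. Slc2a1 was at 29.5, 29.7 and 29.4 FPKM in the Vehicle libraries, at 39.0, 29.8 and 32.5 in CON-BDEV and at 33.1, 32.7 and 39.2 in SE-BDEV. All 6 vesicle values were above all 3 Vehicle values, with CON-BDEV 1 and SE-BDEV 3 the highest. The gene rose with SE-BDEV (0.23 ± 0.064, adjusted p = 0.0465), and its difference with CON-BDEV was 0.18 ± 0.083 (adjusted p = 0.235). Without any 1 Vehicle library the SE-BDEV call was lost (adjusted p up to 0.136, without Vehicle 1), and without SE-BDEV 3 the difference was 0.15 (adjusted p = 0.0401). The call was also lost with no filter on low values, under quantile normalization or median scaling, with limma without a trend, with a block for the library-name number and in 1 fit of all 9 libraries (adjusted p = 0.052 to 0.145). Slc2a6 overlapped between groups, at 22.6 to 26.2 FPKM over all 9 libraries.

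Hexokinases shifted in opposite directions. Hk3, the myeloid isozyme and the highest of the 3, was at 114, 114 and 105 FPKM in Vehicle, 87.4, 100.04 and 93.5 in CON-BDEV and 86.1, 94.4 and 90.03 in SE-BDEV. Every vesicle library was below every Vehicle library, and Hk3 fell by 0.24 ± 0.057 with CON-BDEV (adjusted p = 0.0465) and by 0.29 ± 0.048 with SE-BDEV (adjusted p = 0.00576). Hk2, the isozyme induced by hypoxia in many tissues, was at 33.6, 35.5 and 35.4, then 40.8, 36.4 and 43.5, then 40.3, 39.0 and 39.2 FPKM in the same order of groups. It was above Vehicle in all 6 vesicle libraries and rose with SE-BDEV (0.18 ± 0.039, adjusted p = 0.0198), while its CON-BDEV difference of 0.20 ± 0.064 did not pass (adjusted p = 0.103). Hk1, the isozyme found in nearly all tissues, overlapped at 42.3 to 49.0 FPKM. Hk3 in the files spans chr13:55050793-55122746 (mm9), 72.0 kb beside 15.5 kb for the RefSeq gene, so reads of a neighbouring gene could be counted with it.

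Expressed as shares of the summed hexokinase FPKM, Hk3 made up 58.1% ± 1.46 (SD, n = 3) in Vehicle, 52.2% ± 3.18 in CON-BDEV and 51.8% ± 1.7 in SE-BDEV. Hk2 made up 18.3% ± 0.788, 22.4% ± 1.94 and 22.7% ± 0.767. The sum of the 3 isozymes was 190.4, 179.5 and 174.0 FPKM in the same order, so the gain of Hk2 was smaller than the loss of Hk3. The CON-BDEV call of Hk3 was lost without any 1 Vehicle library, CON-BDEV 1 or CON-BDEV 3 (adjusted p up to 0.177, without Vehicle 1), and its SE-BDEV call held in all 6 fits that left out 1 library. With no filter, without a trend or with either number as a block, the CON-BDEV call of Hk3 was lost as well (adjusted p = 0.0627 to 0.111). The SE-BDEV call of Hk2 was lost in 1 fit of all 9 libraries (adjusted p = 0.0869) and without Vehicle 1, Vehicle 2 or SE-BDEV 1 (adjusted p up to 0.0923, without Vehicle 1), and Hk2 with CON-BDEV passed without CON-BDEV 2 (0.27, adjusted p = 0.0197).

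**Figure D3:**
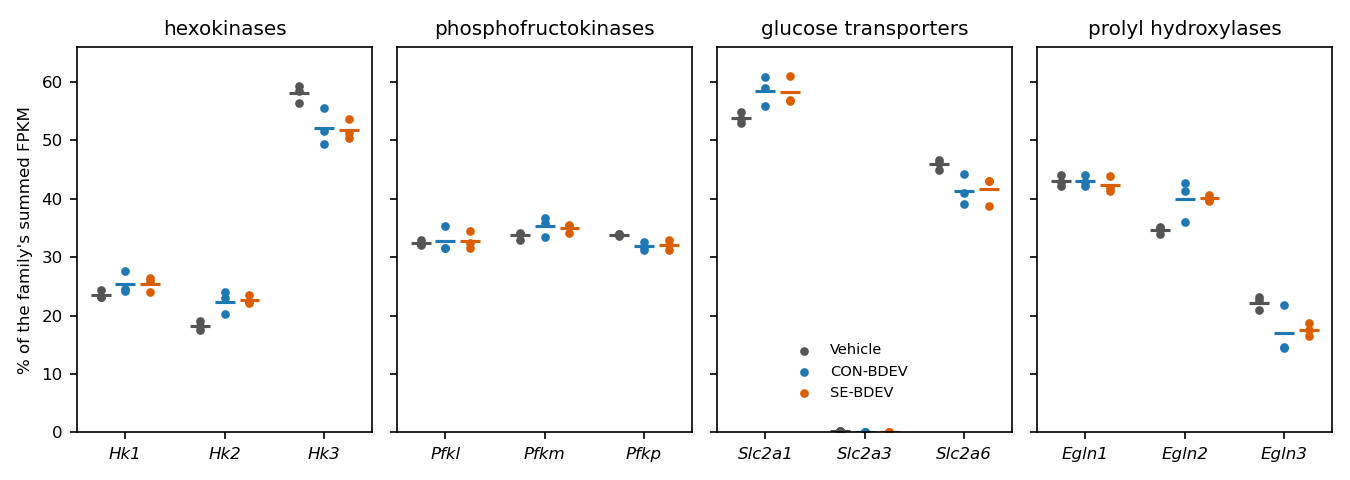
Share of each isozyme in the summed FPKM of its family (vertical axis, percent), 1 point per library and a line at each group's mean. The Hk3 share lies at 56.5% to 59.3% in Vehicle and at 49.3% to 55.6% in the 6 vesicle libraries, and the Hk2 share is higher in every vesicle library than in every Vehicle library.

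In the upper steps, from glucose 6-phosphate to the triose phosphates, 2 of 8 genes fell with CON-BDEV and 3 of 8 with SE-BDEV, beside 1.86% and 5.14% of all genes, and none rose in either. Pfkp, the platelet-type phosphofructokinase, was at 56.4, 56.4 and 56.8 FPKM in Vehicle, 47.1, 49.6 and 48.2 in CON-BDEV and 48.9, 46.4 and 46.5 in SE-BDEV. The Vehicle values were within 1 FPKM of each other and the 6 vesicle values all lay below them. Pfkp fell by 0.22 ± 0.04 with CON-BDEV (adjusted p = 0.0165) and by 0.25 ± 0.037 with SE-BDEV (adjusted p = 0.00334). Pfkl, the liver type, was at 54.1, 53.3 and 55.2 in Vehicle, 53.2, 47.9 and 48.0 in CON-BDEV and 46.9, 46.9 and 51.2 FPKM in SE-BDEV. It was below Vehicle in all 6 vesicle libraries, with CON-BDEV 1 and SE-BDEV 3 nearest to Vehicle, and it fell with SE-BDEV (-0.16 ± 0.044, adjusted p = 0.0433). With CON-BDEV its difference was -0.12 (adjusted p = 0.175), and without CON-BDEV 1 it was -0.17 (adjusted p = 0.0329).

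Pfkm, the muscle type, was lower in SE-BDEV without passing (-0.13, adjusted p = 0.0522) and overlapped in CON-BDEV (-0.075). With a filter of 5 FPKM, quantile normalization or median scaling, Pfkm was called lower with SE-BDEV. The Pfkp share of the summed phosphofructokinase FPKM was 33.8% ± 0.222 (SD, n = 3) in Vehicle, 31.9% ± 0.729 in CON-BDEV and 32.1% ± 0.794 in SE-BDEV, and all 6 vesicle libraries were below all 3 Vehicle libraries. The sum was 167.2 FPKM in Vehicle, 151.5 in CON-BDEV and 147.2 in SE-BDEV. Tpi1, which interconverts the triose phosphates, was at 571, 564 and 595 FPKM in Vehicle, 512, 499.7 and 488 in CON-BDEV and 466, 497 and 488 in SE-BDEV. Groups did not overlap, and Tpi1 fell by 0.21 ± 0.039 (adjusted p = 0.0212) and by 0.25 ± 0.039 (adjusted p = 0.00406). The CON-BDEV calls of Pfkp and Tpi1 were lost without any 1 Vehicle library or CON-BDEV 3 (adjusted p up to 0.0847 and 0.0913), and their SE-BDEV calls held in all 6 such fits. With no filter, without a trend or with the title number as a block, the CON-BDEV call of Tpi1 was lost too (adjusted p = 0.0523 to 0.0619). Of the fits that left out 1 library, the SE-BDEV call of Pfkl held only in that without SE-BDEV 3 (adjusted p up to 0.127, without Vehicle 1). It was also lost with no filter, without a trend and in 1 fit of all 9 libraries (adjusted p = 0.0737 to 0.079).

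The other genes of these steps did not pass in either comparison. Pfkfb3, the kinase that makes the activator fructose 2,6-bisphosphate, was at 14.3, 14.1 and 13.97 FPKM in Vehicle, 15.7, 16.3 and 15.1 in CON-BDEV and 17.1, 16.1 and 15.0 in SE-BDEV. All 6 vesicle values were above Vehicle, with differences of 0.14 (adjusted p = 0.121) and 0.17 (adjusted p = 0.0649). Without SE-BDEV 3, or with a block for the library-name number, Pfkfb3 was called higher with SE-BDEV. Its relative Pfkfb4 overlapped at 5.604 to 6.78 FPKM, and Gpi1, glucose 6-phosphate isomerase, at 303.1 to 328.2 FPKM. Aldoa, the aldolase that splits the sugar and the highest gene of these steps, was at 1695, 1674 and 1666 FPKM in Vehicle, 1673, 1589.7 and 1617 in CON-BDEV and 1629.8, 1529 and 1611 in SE-BDEV, with differences of -0.045 and -0.079. Pfkm is listed over 93.7 kb beside 39.9 kb for its RefSeq gene, so the same holds for it. Pfkp (100.6 beside 69.2 kb) and Tpi1 (5.64 beside 3.57 kb) are listed over longer loci too.

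The lower steps, where ATP is made, gave no call by limma: 0 of 5 genes with CON-BDEV and 0 of 5 with SE-BDEV. Of all genes 5.67% and 11.9% were called, so 0 of 5 is near the share over all genes. At an unadjusted p under 0.05 there were 1 and 0 of the 5, beside 2476 and 2886 of all 10535 genes tested. The 1 gene was Pkm, whose groups overlapped, with a CON-BDEV difference of 0.11. Its 95% interval in limma was 0.0023 to 0.22 (unadjusted p = 0.0463, adjusted p = 0.204). Differences lay between -0.077 and 0.11. Gapdh was at 2302, 2206 and 2194 FPKM in Vehicle, 2239, 2086 and 2032 in CON-BDEV and 2229, 2026 and 2166 in SE-BDEV. These values overlap, and the 95% confidence interval of the SE-BDEV difference was -0.16 to 0.037. The intervals with SE-BDEV were -0.16 to 0.0018 for Pgk1 (phosphoglycerate kinase), -0.16 to 0.052 for Pgam1 (phosphoglycerate mutase), -0.065 to 0.10 for Eno1 (enolase) and -0.024 to 0.14 for Pkm (pyruvate kinase). The SE-BDEV differences of Pfkp and Tpi1 lay outside each of these intervals, but these genes were picked because they were called. No difference between genes or between steps was tested.

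At the branch after pyruvate, Ldha, which reduces pyruvate to lactate, was at 1188, 1171 and 1211 FPKM in Vehicle, 1137, 1079 and 1069.8 in CON-BDEV and 1027, 1031 and 1080.4 in SE-BDEV. Every vesicle library was below every Vehicle library. Ldha fell with SE-BDEV (-0.19 ± 0.036, adjusted p = 0.0121), a call lost without Vehicle 1 or Vehicle 3 (adjusted p up to 0.0596). With CON-BDEV its difference was -0.12 ± 0.039 (adjusted p = 0.106), and without CON-BDEV 1 it was -0.15 (adjusted p = 0.0339). Slc16a1 (MCT1), the lactate and pyruvate transporter that made up nearly all monocarboxylate transporter signal measured here, overlapped at 62.7 to 70.7 FPKM. Pdk1, the kinase that shuts pyruvate dehydrogenase and a classic HIF target, was at 31.5, 31.2 and 30.9 FPKM in Vehicle, 29.7, 29.2 and 29.2 in CON-BDEV and 27.4, 30.2 and 29.0 in SE-BDEV. It lay below Vehicle in all 6 vesicle libraries with differences of -0.085 and -0.11 that did not pass (adjusted p = 0.235 and 0.143).

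Among the oxygen sensors, Hif1a itself was at 33.5, 32.0 and 34.9 FPKM in Vehicle, 32.2, 31.2 and 31.2 in CON-BDEV and 32.5, 33.7 and 33.0 in SE-BDEV. The groups overlapped with Vehicle, and the differences were -0.083 and -0.017 (adjusted p = 0.314 and 0.834). HIF activity is set mainly by the stability of the protein, which these data do not measure. Egln3, the prolyl hydroxylase that is itself strongly induced by HIF, was at 11.5, 11.9 and 10.6 FPKM in Vehicle, 11.5, 6.35 and 6.72 in CON-BDEV and 7.03, 7.79 and 9.46 in SE-BDEV. Of the 6 vesicle libraries 5 were below every Vehicle library, and CON-BDEV 1 was at the Vehicle level.

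Egln3 fell with SE-BDEV (-0.44 ± 0.089, adjusted p = 0.0141), a call lost without Vehicle 1 or Vehicle 2 (adjusted p up to 0.0586), with no filter (0.0666) and in 1 fit of all 9 libraries (0.138). Its CON-BDEV difference was of like size and did not pass (-0.46 ± 0.17, adjusted p = 0.145), and without CON-BDEV 1 it was -0.71 (adjusted p = 0.00113). Egln1, the main oxygen sensor in most cells, had differences of -0.099 and -0.17 (adjusted p = 0.361 and 0.063), and Egln2 of 0.094 and 0.054. Without SE-BDEV 3, Egln1 was called lower with SE-BDEV. As a share of the 3 hydroxylases' summed FPKM, Egln3 was 22.2% ± 1.16 in Vehicle, 16.9% ± 4.17 in CON-BDEV and 17.6% ± 1.16 in SE-BDEV. The Egln2 share was 34.7% ± 0.689, 40% ± 3.51 and 40.1% ± 0.5 in the same order.

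The hypoxia-induced genes outside glycolysis held the largest shifts in both directions. Of 9 genes, 1 rose and 2 fell with CON-BDEV, and 2 rose and 3 fell with SE-BDEV. Of all genes, 3.81% rose and 1.86% fell with CON-BDEV, and 6.76% rose and 5.14% fell with SE-BDEV. Bnip3, a receptor that marks mitochondria for autophagy, was at 38.9, 37.7 and 40.4 FPKM in Vehicle, 29.7, 25.4 and 25.0 in CON-BDEV and 25.1, 25.6 and 27.1 in SE-BDEV. The 6 vesicle values lay well under the 3 Vehicle values, with CON-BDEV 1 nearest to them. Bnip3 fell by 0.53 ± 0.067 with CON-BDEV (adjusted p = 0.00548) and by 0.57 ± 0.045 with SE-BDEV (adjusted p = 0.000105), and both calls held in all fits that left out 1 library (adjusted p up to 0.0392 and 0.00123). Its relative Bnip3l, also a mitophagy receptor, was at 45.7, 47.1 and 48.7 FPKM in Vehicle, 41.4, 42.0 and 43.1 in CON-BDEV and 40.0, 39.0 and 42.9 in SE-BDEV. The groups did not overlap. Bnip3l fell with SE-BDEV (-0.21 ± 0.046, adjusted p = 0.0198), a call lost without Vehicle 2, Vehicle 3, SE-BDEV 1 or SE-BDEV 2 (adjusted p up to 0.0737) or with no filter (0.0528). Its CON-BDEV difference was -0.16 (adjusted p = 0.0655), and it passed under quantile normalization (-0.19, adjusted p = 0.035).

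Ankrd37, a small ankyrin-repeat protein and HIF target, was at 4.48, 6.74 and 4.76 FPKM in Vehicle, 3.42, 2.18 and 2.88 in CON-BDEV and 2.11, 2.43 and 2.43 in SE-BDEV. All vesicle values were below all Vehicle values, and Vehicle 2 was the highest. It had the largest differences of the 34 genes, with a fall of 0.72 ± 0.15 with CON-BDEV (adjusted p = 0.0295) and of 0.91 ± 0.12 with SE-BDEV (adjusted p = 0.00182). The CON-BDEV call was lost without any 1 Vehicle library or CON-BDEV 3 (adjusted p up to 0.0962), with no filter and with either number as a block (0.0631 to 0.11), and the SE-BDEV call held in all 6 such fits. Ankrd37 was the lowest of the 34 genes on the FPKM scale, and its listed locus, chr8:47060882-47085204 (mm9), covers 24.3 kb beside 3.51 kb for the RefSeq gene, so reads of an overlapping gene could be counted with it.

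Vegfa and P4ha2 went the other way. Vegfa, the angiogenic growth factor and a classic HIF target, was at 26.6, 26.5 and 25.3 FPKM in Vehicle, 27.3, 33.9 and 39.5 in CON-BDEV and 38.1, 33.8 and 29.2 in SE-BDEV. All vesicle values were above all Vehicle values, with CON-BDEV 1 and SE-BDEV 3 nearest to Vehicle. Vegfa rose with SE-BDEV (0.35 ± 0.08, adjusted p = 0.0245), a call lost without any 1 Vehicle library or SE-BDEV 2 (adjusted p up to 0.0852), with no filter (0.0906) and in 1 fit of all 9 libraries (0.0994). With CON-BDEV the difference was 0.33 ± 0.11 (adjusted p = 0.107), and without CON-BDEV 1 it was 0.47 (adjusted p = 0.00615).

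P4ha2, a catalytic subunit of collagen prolyl 4-hydroxylase, was at 3.48, 3.48 and 3.82 FPKM in Vehicle, 4.996, 4.54 and 4.76 in CON-BDEV and 4.98, 4.30 and 5.30 in SE-BDEV. The groups did not overlap, and P4ha2 rose by 0.33 ± 0.065 with CON-BDEV (adjusted p = 0.0257) and by 0.35 ± 0.076 with SE-BDEV (adjusted p = 0.019). The CON-BDEV call was lost without any 1 Vehicle library or CON-BDEV 3 (adjusted p up to 0.115), and the SE-BDEV call without Vehicle 1, Vehicle 2 or SE-BDEV 1 (adjusted p up to 0.0774). With no filter both calls were lost (0.0707 and 0.0658), and with either number as a block that with CON-BDEV (0.0609 and 0.0638). The other catalytic subunit, P4ha1, overlapped at 17.9 to 20.7 FPKM. Kdm3a, a histone demethylase induced by hypoxia, was lower than Vehicle in all 6 vesicle libraries without passing (-0.13 and -0.12, adjusted p = 0.187 and 0.159).

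Ndrg1, a stress-response gene and the highest of the hypoxia-induced genes outside glycolysis, was at 56.0, 55.1 and 56.6 FPKM in Vehicle, 44.3, 55.1 and 51.8 in CON-BDEV and 57.2, 51.4 and 42.5 in SE-BDEV. Only CON-BDEV 1 and SE-BDEV 3 were far below Vehicle. The differences were -0.15 and -0.16 (adjusted p = 0.24 and 0.274), and without CON-BDEV 1 and SE-BDEV 3 respectively they were -0.063 and -0.043. Mxi1, an antagonist of MYC, had differences of 0.00047 and 0.00095 and was at 27.8 to 30.9 FPKM in all libraries.

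**Figure D4:**
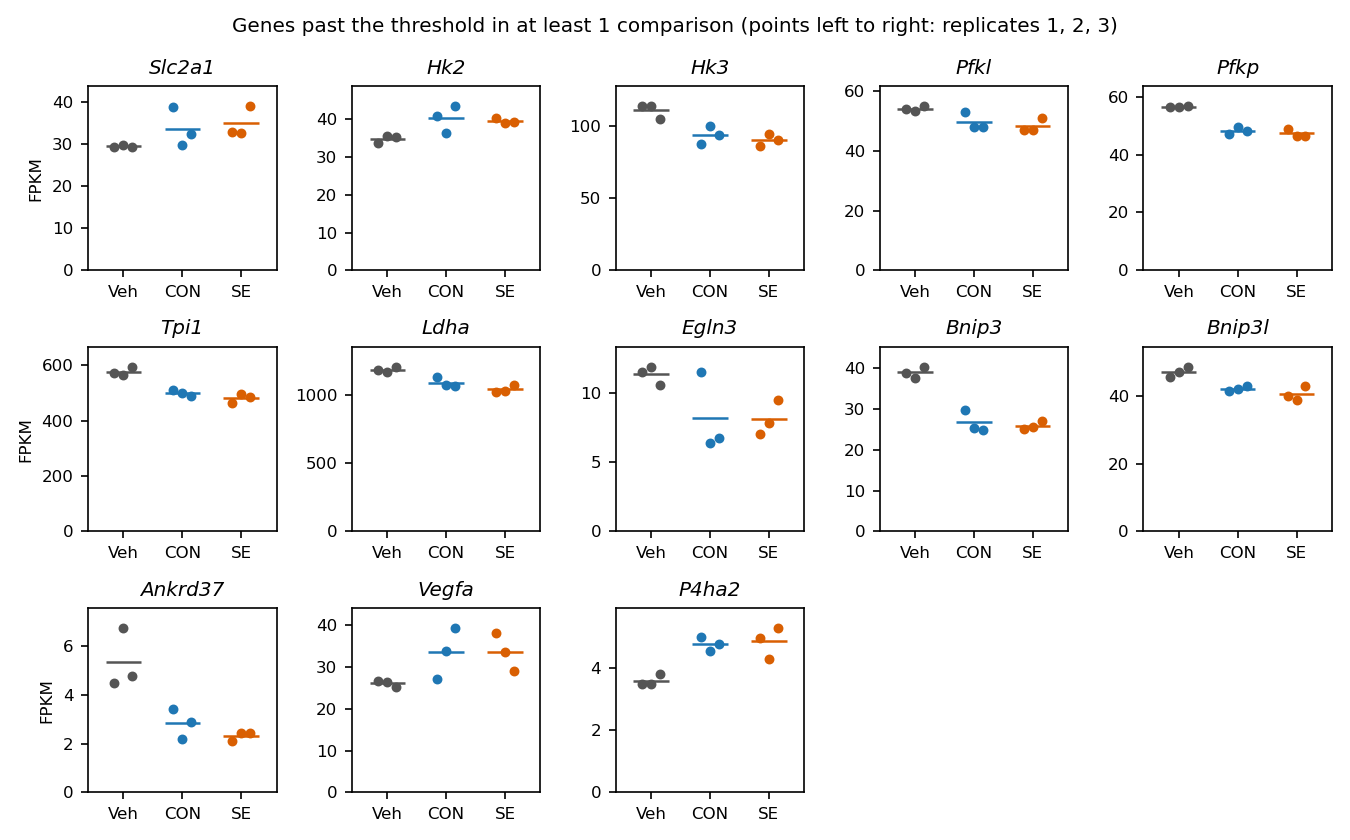
FPKM (vertical axis, from 0) of the 13 genes that passed in at least 1 comparison, with Vehicle (Veh), CON-BDEV (CON) and SE-BDEV (SE) libraries as points and a line at each group's mean. In 12 of the 13 panels every vesicle library lies on 1 side of every Vehicle library, and in Egln3 the first CON-BDEV library lies among the Vehicle values.

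The numbers that begin the library names in the labels, 1 or 2, are the only other split of the libraries that the labels hold, and the labels do not say what they stand for. Libraries of each number include every group, though some groups by a single library. CON-BDEV 1 and SE-BDEV 1 are the only vesicle libraries of number 1, and Vehicle 3 is the only Vehicle library of number 2. With this number as a block, 3 of the 6 CON-BDEV calls were lost: Hk3 (adjusted p = 0.0894), Ankrd37 (0.0631) and P4ha2 (0.0638). Of the 13 SE-BDEV calls, Slc2a1 was lost (adjusted p = 0.0911), and Pfkfb3 was called higher in addition. For Bnip3, the within-number differences were -0.35 and -0.66 with CON-BDEV and -0.59 and -0.60 with SE-BDEV, in the order of the numbers. Each of these rests on a single library on 1 side.

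Other genes of the same pathways were taken from 4 further lists. Of 35 other glucose and glycolysis genes 20 could be tested. With CON-BDEV 2 rose and 2 fell, beside 3.81% and 1.86% of all genes, and with SE-BDEV 3 rose and 1 fell, beside 6.76% and 5.14%. The list's median difference was -0.024 with CON-BDEV and -0.012 with SE-BDEV. Gbe1, the glycogen branching enzyme, was at 11.3, 10.9 and 11.6 FPKM in Vehicle, 22.1, 19.5 and 23.9 in CON-BDEV and 21.5, 22.9 and 23.2 in SE-BDEV. It rose by 0.90 ± 0.071 (adjusted p = 0.000909) and by 0.94 ± 0.047 (adjusted p = 5.75e-06), more than any of the 34 genes, and held in all fits that left out 1 library. Slc2a9, a urate transporter of the glucose transporter family, rose by 0.40 and 0.44 (adjusted p = 0.0271 and 0.0157), and Emb, a partner protein of monocarboxylate transporters, by 0.18 with SE-BDEV (adjusted p = 0.0298). Aldoc, the brain-type aldolase, fell by 0.22 with CON-BDEV and by 0.26 with SE-BDEV (adjusted p = 0.0319 and 0.00835), and Eno2, the neuron-type enolase, fell by 0.20 with CON-BDEV (adjusted p = 0.0357). The CON-BDEV calls of Slc2a9, Aldoc and Eno2 were lost without any 1 Vehicle library or CON-BDEV 3 (adjusted p up to 0.117, 0.128 and 0.146). The SE-BDEV call of Slc2a9 was lost without Vehicle 1 or Vehicle 2 (up to 0.0666) and that of Emb without Vehicle 1, Vehicle 2, SE-BDEV 1 or SE-BDEV 3 (up to 0.117). With no filter, the CON-BDEV calls of Slc2a9, Aldoc and Eno2 and the SE-BDEV calls of Slc2a9 and Emb were lost (0.0599 to 0.0981), as were the same 3 with CON-BDEV and Emb with SE-BDEV with a block for the library-name number (0.0595 to 0.0813). Aldoc and Eno2 with CON-BDEV were lost with the title number as a block (0.0671 and 0.093), Aldoc with CON-BDEV and Emb without a trend (0.055 and 0.058), and Eno2 and Emb in 1 fit of all 9 libraries (0.0585 and 0.0906).

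A second list held the genes that carry pyruvate into mitochondria and act on it there. Of its 14 genes 12 could be tested: 3 rose and 0 fell with CON-BDEV, and 3 rose and 1 fell with SE-BDEV, with median differences of 0.096 and 0.048. The other 9 and 8 did not pass, and the shares called over all genes were 5.67% and 11.9%. Pcx, pyruvate carboxylase, was at 16.3, 15.9 and 16.4 FPKM in Vehicle, 25.9, 23.3 and 29.9 in CON-BDEV and 28.0, 25.8 and 27.2 in SE-BDEV, rising by 0.66 ± 0.079 (adjusted p = 0.00434) and 0.70 ± 0.044 (adjusted p = 1.71e-05). Mpc1, a subunit of the mitochondrial pyruvate carrier, was at 74.6, 74.1 and 75.3 FPKM in Vehicle, 99.1, 98.0 and 98.7 in CON-BDEV and 96.0, 88.6 and 112 in SE-BDEV, rising by 0.40 and 0.39 (adjusted p = 0.00151 and 0.00911). The calls of Pcx and Mpc1 held in all fits that left out 1 library. Pdhx, a component of the pyruvate dehydrogenase complex, rose by 0.19 and 0.19 (adjusted p = 0.0402 and 0.0177), and Pdp2, a phosphatase that activates that complex, fell by 0.32 with SE-BDEV (adjusted p = 0.0129). Pdhx was lost without any 1 Vehicle library or CON-BDEV 3 with CON-BDEV (up to 0.157) and without Vehicle 2 or Vehicle 3 with SE-BDEV (up to 0.0725), and Pdp2 without Vehicle 3 (0.0564) or with no filter (0.0535). Pdhx with CON-BDEV was also lost with no filter, under quantile normalization, without a trend and with either number as a block (0.067 to 0.0906).

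Of 16 other regulators of HIF 14 could be tested: 2 rose and 1 fell with CON-BDEV, and 3 rose and 1 fell with SE-BDEV, with median differences of 0.035 and 0.046. That is 3 and 4 calls of 14, beside 5.67% and 11.9% of all genes. Epas1, the alternative alpha subunit HIF-2 alpha, was at 44.4, 45.0 and 44.3 FPKM in Vehicle, 37.4, 36.4 and 35.8 in CON-BDEV and 38.7, 36.0 and 37.6 in SE-BDEV, and fell by 0.28 and 0.25 (adjusted p = 0.00864 and 0.00548). Cited2, which competes with HIF for its coactivator, was at 50.1, 53.4 and 49.8 in Vehicle, 67.3, 60.4 and 65.0 in CON-BDEV and 70.7, 61.6 and 64.4 FPKM in SE-BDEV, and rose by 0.32 and 0.35 (adjusted p = 0.0119 and 0.00423). Os9, a lectin of the endoplasmic reticulum that is also described as a partner of HIF-1 alpha, rose by 0.25 and 0.24 (adjusted p = 0.0297 and 0.00965). Vhl rose by 0.22 with SE-BDEV (adjusted p = 0.0359), a call that no fit leaving out 1 library kept (adjusted p up to 0.136). With CON-BDEV, Epas1 was lost without Vehicle 2 (0.0507), Cited2 without Vehicle 1, Vehicle 3 or CON-BDEV 3 (up to 0.0657) and Os9 without any 1 Vehicle library or CON-BDEV 3 (up to 0.124). The SE-BDEV calls of Epas1, Cited2 and Os9 held in all 6 such fits. With no filter, Cited2 and Os9 with CON-BDEV (0.0535 and 0.0747) and Vhl (0.0827) were lost, and Os9 with CON-BDEV with either number as a block (0.0621 and 0.0698) and Vhl with the title number as a block (0.0644).

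Of 33 other hypoxia-induced targets 26 could be tested: 3 rose and 1 fell with CON-BDEV, and 5 rose and 1 fell with SE-BDEV, with median differences of 0.048 and 0.0079. That is 4 and 6 calls of 26, beside the same 5.67% and 11.9%. P4hb, the partner subunit of P4ha1 and P4ha2 and a protein disulfide isomerase, was at 169, 172 and 183 FPKM in Vehicle, 237, 195 and 222 in CON-BDEV and 213, 211 and 224 in SE-BDEV, and rose by 0.31 and 0.31 (adjusted p = 0.0336 and 0.00252). Ero1l, the oxidase that serves that isomerase, rose by 0.34 and 0.37 (adjusted p = 0.036 and 0.0186). Cxcr4, a chemokine receptor, rose by 0.50 and 0.59 (adjusted p = 0.0227 and 0.0116). With SE-BDEV the transferrin receptor Tfrc rose by 0.41 and the secreted glycoprotein Stc2 by 0.45 (adjusted p = 0.0132 and 0.0318). Plod2, a lysyl hydroxylase of collagen, fell by 0.32 and 0.22 (adjusted p = 0.0165 and 0.0283). The CON-BDEV calls of P4hb, Cxcr4 and Plod2 were lost without any 1 Vehicle library or CON-BDEV 3 (up to 0.138, 0.096 and 0.0869) and that of Ero1l also without CON-BDEV 2 (up to 0.138). With SE-BDEV, Ero1l was lost without any 1 Vehicle library (up to 0.0665), Plod2 without Vehicle 1, Vehicle 3, SE-BDEV 1 or SE-BDEV 2 (up to 0.112) and Stc2 in every fit but that without SE-BDEV 3 (up to 0.111), while P4hb, Cxcr4 and Tfrc held in all. With no filter, all 4 CON-BDEV calls (0.0602 to 0.109) and all SE-BDEV calls but that of P4hb (0.0639 to 0.113) were lost. With CON-BDEV, P4hb was also lost under quantile normalization, P4hb and Ero1l without a trend and with a block for the library-name number, and Ero1l in 1 fit of all 9 libraries (0.0537 to 0.0726), which also ended the SE-BDEV call of Stc2 (0.127).

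Of the 12 microglia and macrophage markers, 4 passed in each comparison, beside 5.67% and 11.9% of all genes. Their summed level was 2753 to 2839 FPKM in Vehicle, 2852 to 3071 in CON-BDEV and 2803 to 3169 in SE-BDEV. With CON-BDEV Aif1, Adgre1 and Lyz2 rose and Cd14 fell, and with SE-BDEV Csf1r, Itgam and Adgre1 rose and Cd14 fell. Adgre1, the macrophage antigen F4/80, rose by 0.38 and 0.38 (adjusted p = 0.00956 and 0.000787). The part of these shifts in the results above was not tested.

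The last question was whether vesicles of the 2 kinds differed in these genes. In the direct comparison of SE-BDEV with CON-BDEV, 0 of the 34 genes passed in limma, of 0% of 10532 genes, with 1 of the 34 and 509 of all genes at an unadjusted p under 0.05. That gene was Pgk1, with a difference of -0.076 (unadjusted p = 0.0492), whose SE-BDEV values of 539.7, 574 and 558 FPKM lay below the CON-BDEV values of 581, 594 and 586. Differences ran from -0.19 (Ankrd37) to 0.066 (Slc2a6). The groups did not overlap in 2 genes, compared with 7.94% of all genes: Pgk1, where 5.19% of all genes were lower in this way, and Hif1a, where 2.74% were higher. The 95% intervals of the difference were -0.18 to 0.10 for Bnip3, -0.18 to 0.072 for Hk3, -0.11 to 0.055 for Pfkp, -0.13 to 0.038 for Tpi1 and -0.15 to 0.018 for Ldha. They were wider for the genes in which the vesicle libraries scattered, at -0.35 to 0.39 for Egln3, -0.25 to 0.27 for Vegfa and -0.50 to 0.11 for Ankrd37. These intervals limit the size of a difference and do not show that both kinds of vesicle act alike.

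Of the 7 genes that passed with SE-BDEV and not with CON-BDEV, none had a called difference between the 2 kinds of vesicle. These were Slc2a1, Hk2, Pfkl, Ldha, Egln3, Bnip3l and Vegfa, with adjusted p = 0.999 each. In the authors' deposited table, 4 of the 34 genes had a q-value under 0.05 with CON-BDEV (Bnip3 and Egln3 lower, Vegfa and P4ha2 higher) and 5 with SE-BDEV (the same 4 and Hk3, lower). The authors' deposited table gave Egln3 a log2 fold change of -0.47 (q = 0.00245) and Vegfa one of 0.36 (q = 0.00245) with CON-BDEV, calls that limma on the FPKM values did not make. In the other direction, 2 of the 6 CON-BDEV and 5 of the 13 SE-BDEV calls of limma had a q-value under 0.05 there. Those without one include Ankrd37 (q = 0.654 and 0.448), Pfkp (0.366 and 0.207), Tpi1 (0.222 and 0.0509) and Ldha with SE-BDEV (0.245). The share of all genes with such a q-value was not counted.

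**Figure D5:**
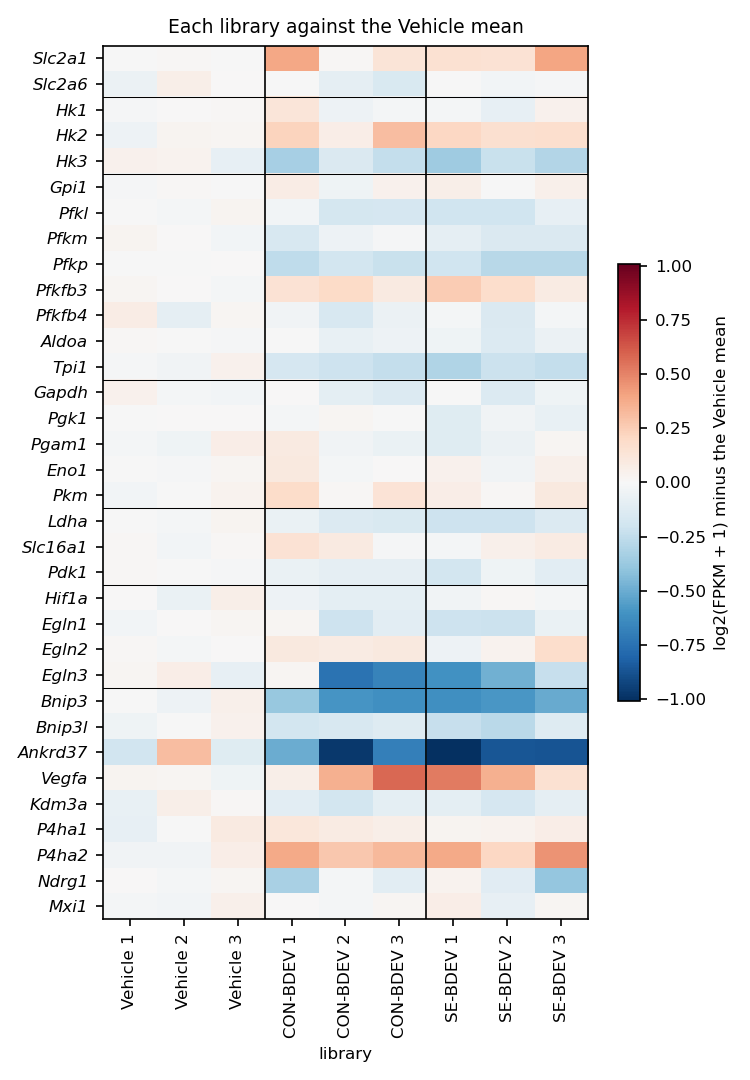
Log2(FPKM + 1) of each of the 34 genes in each library minus the mean of the 3 Vehicle libraries (colour scale, log2 units, red higher and blue lower), with genes ordered by role and lines between groups and roles. The rows of Bnip3, Ankrd37 and Tpi1 are blue and that of P4ha2 is red in all 6 vesicle libraries, while CON-BDEV 1 shows no decrease of Egln3.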

How the data were processed

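PolyA-selected RNA of 9 libraries was sequenced after directional library preparation, per the labels' protocols. TopHat2, Cuffdiff and build mm9 are named in the submitters' processing notes, with no version or annotation given in the sources used here. The deposited values are FPKM per gene and library in 2 tables, CON-BDEV with Vehicle and SE-BDEV with Vehicle. The deposited Cuffdiff tables give, per the file headers, mean FPKM, a log2 fold change, a test score, and the authors' p-value with its q-value. The shared Vehicle libraries differ between the tables by a factor of 1.00012 to 1.00078, and SE-BDEV values were divided by 1.00044 to join them. Genes with a failed Cuffdiff estimate (2 in the CON-BDEV table, 1 in the SE-BDEV table) were left out.

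Values were tested as log2(FPKM + 1) with limma 3.58.1 in R 4.3.3 (eBayes with a trend, 2-sided) over genes averaging at least 1 FPKM, each vesicle group against Vehicle in its own table, and SE-BDEV against CON-BDEV in 1 fit of 9 libraries. The threshold was a Benjamini-Hochberg adjusted p of 0.05. With 3 against 3, an exact permutation test cannot give a p below 0.1. The fit was also run on simulated data whose noise was independent between libraries. That run holds no shifts shared by libraries and is not used as support here. Members and lists were chosen with earlier results of these data known. Values in every library are given for genes called in any comparison and the highest gene of each role, and for list genes up to 6 calls per list and comparison. Kdm3a, Pdk1, Pfkfb3 and Pgk1 were named after their values were seen. Libraries with the same title number did not deviate together, so no block was used. Alternatives covered the pseudocount, the filter on low values, the scaling, the trend, blocks, the joint fit and each library left out. Printed starts count from 1.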

Additional observations from a re-analysis of the deposited data

How the results depend on the processing

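Alternative fits were counted for those of the 34 genes that were called in any comparison or highest in their role. Of these fits, 668 kept direction and side of the threshold, 76 lost a call and 6 gained one. The other 26 changed sign, all in differences that were not called. Outside this count, Pfkm, Pfkfb3 and Egln1 each gained a call with SE-BDEV in at least 1 setting. With CON-BDEV against Vehicle (597 genes called; 1 of the 34 higher, 5 lower), no filter on low values gave 112 genes (0 higher, 2 lower), a filter of 5 FPKM gave 0 higher because P4ha2 was no longer tested, and eBayes without a trend gave 3 lower. The replicate block gave 364 genes (0 higher, 2 lower), and the library-name number as a block 275 (0 higher, 3 lower). Same-numbered libraries had a mean correlation of -0.04 after removal of group means (9 pairs, -0.26 to 0.19), and 3 of 9 libraries correlated best with their own number. The replicate block left 1060 genes with SE-BDEV (4 higher, 9 lower) and 0 between vesicles. With SE-BDEV against Vehicle (1253 genes; 4 higher, 9 lower), no filter gave 726 genes (1 higher) and 1 fit of all 9 libraries 830 (1 higher). Leaving out 1 library gave 84 to 1067 genes with CON-BDEV (0 to 2 higher, 1 to 7 lower), 501 to 1311 with SE-BDEV (0 to 5 higher, 6 to 10 lower) and 0 to 1 between vesicles. SE-BDEV against CON-BDEV gave 1 gene, none of the 34, with eBayes without a trend and 1 without both CON-BDEV 1 and SE-BDEV 3, an alternative chosen after the data were seen. Quantile normalization moved the CON-BDEV split from 401 higher and 196 lower to 301 and 249. It also turned Gapdh with SE-BDEV to 0.0085 and, between vesicles, Tpi1 to 0.029, Ldha to 0.011, Ndrg1 to 0.014 and Tceb2 to 0.013. With 1 library left out, the difference of Hif1a with SE-BDEV ran from -0.049 to 0.014, and between vesicles that of Pfkl from -0.080 to 0.010, Bnip3 from -0.083 to 0.038, Vegfa from -0.12 to 0.14, Slc2a1 from -0.029 to 0.16, Egln3 from -0.12 to 0.26, P4ha2 from -0.033 to 0.091, Ndrg1 from -0.10 to 0.11, Hk2 from -0.090 to 0.035, Gapdh from -0.015 to 0.055, Bsg from -0.012 to 0.037, Tceb2 from -0.055 to 0.014 and Mif from -0.0087 to 0.091, all changing sign. Without both libraries Bnip3 was 0.0067, Vegfa -0.027, P4ha2 -0.0047 and Ndrg1 0.020. The cause of these shifts was not tested. Precision is limited by 3 libraries per group, and depth matters most for Ankrd37 and P4ha2, the genes with the fewest FPKM.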

Other observations

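A pattern noticed after the values were seen concerns CON-BDEV 1 and SE-BDEV 3, libraries of different groups. Among the 6 vesicle libraries they held the 2 highest values of Bnip3, Egln1, Egln2, Egln3, Eno1, Hk1, Ldha, P4ha2, Pfkl, Pgam1 and Slc2a1, and the 2 lowest of Ndrg1, Pfkm and Vegfa. That is 14 of the 34 genes (41.2%), compared with 3072 of 10532 genes (29.2%). The 11 genes in which they were highest include the 3 prolyl hydroxylases. Egln3 was at 11.5 FPKM in CON-BDEV 1 and 9.46 in SE-BDEV 3, against 6.35 to 7.79 in the other 4 vesicle libraries. Ndrg1 was at 44.3 and 42.5 FPKM, against 51.4 to 57.2 in the other 4. The labels give these libraries different numbers and name no handling that they share.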
